A study of Homo sapiens with 6 samples.

Results

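A set of 10 genes that modify, fold or crosslink collagen were followed in LN229, an established human glioblastoma cell line, by RNA sequencing. The genes were chosen by name: P4HA1, P4HA2 and P4HB for the prolyl 4-hydroxylases, PLOD1, PLOD2 and PLOD3 for the lysyl hydroxylases, COLGALT1 for a collagen galactosyltransferase, SERPINH1 for the collagen chaperone HSP47, and LOX and LOXL2 for the lysyl oxidases. All 10 were present among the 28265 gene symbols of the deposited tables, and 9 of them passed the filter on low counts that left 14315 genes for testing. LOX did not pass it. Of the 6 libraries, 3 had the genotype label WT and serve as the control. The other 3 had the genotype label TRIM25 knockdown, for which the series design names a short hairpin RNA. Both groups were LN229 cells grown in DMEM with fetal bovine serum. The letters NC in the control titles are not explained. Whether control cells carried a hairpin, how many hairpins were used, and whether a group was 1 clone or several separate cultures is also not given in the sources used here. The p-values therefore measure only the spread between these libraries, which may be technical.

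Collagen chains are modified in the endoplasmic reticulum before and while they fold into a triple helix. Prolyl 4-hydroxylases convert prolines to 4-hydroxyproline, which stabilises the helix. Lysyl hydroxylases modify lysines that can then carry sugars or form crosslinks. Both families need iron, ascorbate, oxygen and 2-oxoglutarate. HSP47 binds the folded helix, and lysyl oxidases act outside the cell, oxidising lysines so that collagen molecules become covalently joined. In tumours, including glioblastoma, these enzymes are studied for matrix stiffness and invasion, and several of their genes are known targets of the hypoxia-inducible factor HIF.

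TRIM25, the gene named as the target, was higher in the libraries labelled knockdown, with 964, 905 and 1443 reads against 561, 493 and 563 in control (2.34-fold, log2 fold change 1.22 ± 0.07, SE). The labels were therefore kept as names only, and no direction below can be read as an effect of losing TRIM25 mRNA. Total counts ran from 11349865 to 16404725 per library. Of 10 glioma and glial marker genes, VIM, NES, SOX2, CD44, S100B, OLIG2, FABP7 and EGFR passed the filter on low counts, while SOX9 and the astrocyte filament gene GFAP had at most 18 and 8 reads in any library. Of the 8 that passed it, NES rose 1.20-fold, and SOX2 (1.58-fold), OLIG2 (1.60-fold) and S100B (1.26-fold) fell. The 10 genes summed to 5390 to 5698 CPM (counts scaled to library size with trimmed-mean factors) in control and to 4947 to 5312 CPM in the libraries labelled knockdown, without overlap. VIM was the largest term, with means of 3475 CPM in control and 3162 CPM in the libraries labelled knockdown. It did not pass the test (edgeR adjusted p = 0.0557). Summed levels of 8 immune markers were 46.4 to 48.4 CPM in control and 60.7 to 76.2 CPM in the libraries labelled knockdown. Most of this sum was the single gene CD68, with means of 44.9 CPM in control and 63.3 CPM in the libraries labelled knockdown. CD68 and ITGAM were the 2 immune markers tested and both were higher, AIF1 was at 0 in all 6 libraries, and PTPRC had at most 9 reads. The 10 fibroblast and mural markers summed to 194.5 to 211.1 and 201.9 to 212.0 CPM. Of the 8 tested, 2 were higher and 4 lower, beside 12.2% higher and 11.0% lower among all tested genes. The 6 endothelial markers summed to at most 3.34 CPM and the 6 epithelial markers to at most 5.44 CPM. The 6 neuronal markers summed to 109.7 to 111.3 CPM in control and 98.2 to 103.2 CPM in the libraries labelled knockdown. The part of these markers in the results below was not tested. In bulk RNA, fewer cells of a type and less RNA per cell cannot be told apart.

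The α subunits of prolyl 4-hydroxylase were lower in the libraries labelled knockdown, and the β subunit did not pass the test. Of the 9 tested members, 3 fell (P4HA1, P4HA2 and PLOD1) and 0 rose at an adjusted p under 0.05 (edgeR quasi-likelihood test, Benjamini-Hochberg over all tested genes). Among all tested genes, 11.0% fell and 12.2% rose, so 23.3% passed in either direction. These shares followed gene length: 16.1% fell and 3.32% rose among the 2863 shortest genes (55 to 1941 bp), and 6.71% fell and 27.6% rose among the 2863 longest (6305 to 93098 bp). Across 13890 genes, which are not independent replicates, fold changes correlated with length at a Spearman rho of 0.302 and with GC content at -0.262; the part of this trend in the members' results was measured only through an offset fitted for both. The 9 tested members have a median length of 3117 bp. The members are abundant, and among the 1335 tested genes at least as abundant as COLGALT1, the lowest tested member, 16.8% fell and 17.4% rose. The median log2 fold change of the 9 tested members was -0.10, against -0.0038 over all tested genes. With an offset per library for gene length and GC content, these medians were -0.039 and 0.016. In 4 of the 9 the groups did not overlap, all with the libraries labelled knockdown lower, against 19.0% of tested genes that did not overlap in that direction and 37.3% in either.

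P4HA1 encodes the main catalytic α subunit of prolyl 4-hydroxylase in many cells. Its level was 312.6, 311.0 and 300.6 CPM in control replicates 1, 2 and 3 and 221.2, 235.6 and 235.5 CPM in the corresponding libraries labelled knockdown. Every library labelled knockdown lay below every control library, with means of 308.1 ± 6.53 and 230.8 ± 8.26 CPM (SD over n = 3 per group). P4HA1 fell 1.33-fold, a log2 fold change of -0.42 ± 0.05 (SE; 95% interval -0.53 to -0.30; edgeR adjusted p = 3.8e-05).

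P4HA2, the gene of the alternative catalytic α subunit, moved further. It stood at 257.5, 269.5 and 267.8 CPM in control and at 179.1, 172.4 and 175.3 CPM in the libraries labelled knockdown. The gap between the groups was wide beside the spread within them, with means of 264.9 ± 6.48 and 175.6 ± 3.34 CPM (SD over n = 3 per group). P4HA2 fell 1.51-fold (log2 fold change -0.59 ± 0.05, SE; 95% interval -0.71 to -0.48; edgeR adjusted p = 9.82e-07). Of all tested genes, 3.7% had a lower log2 fold change than P4HA2 and 6.96% a lower one than P4HA1. In the GENCODE v29 annotation, P4HA2 shares 548 bp of exon with the antisense gene P4HA2-AS1 on the opposite strand. P4HA2-AS1 had 4 reads over the 6 libraries, against 19000 for P4HA2.

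P4HB encodes protein disulfide isomerase, which is also the β subunit that keeps the α subunits soluble in the endoplasmic reticulum. It was read at 1776, 1797 and 1824 CPM in control and at 1986, 1875 and 1739 CPM in the libraries labelled knockdown. These ranges overlapped: labelled knockdown replicate 3 was the lowest of the 6 libraries and replicate 1 the highest. The log2 fold change was 0.05 ± 0.05 (SE; 95% interval -0.05 to 0.16; edgeR adjusted p = 0.481). With an offset for gene length and GC content fitted per library, P4HB passed the test as higher (log2 fold change 0.14, edgeR adjusted p = 0.000795).

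**Figure D1:**
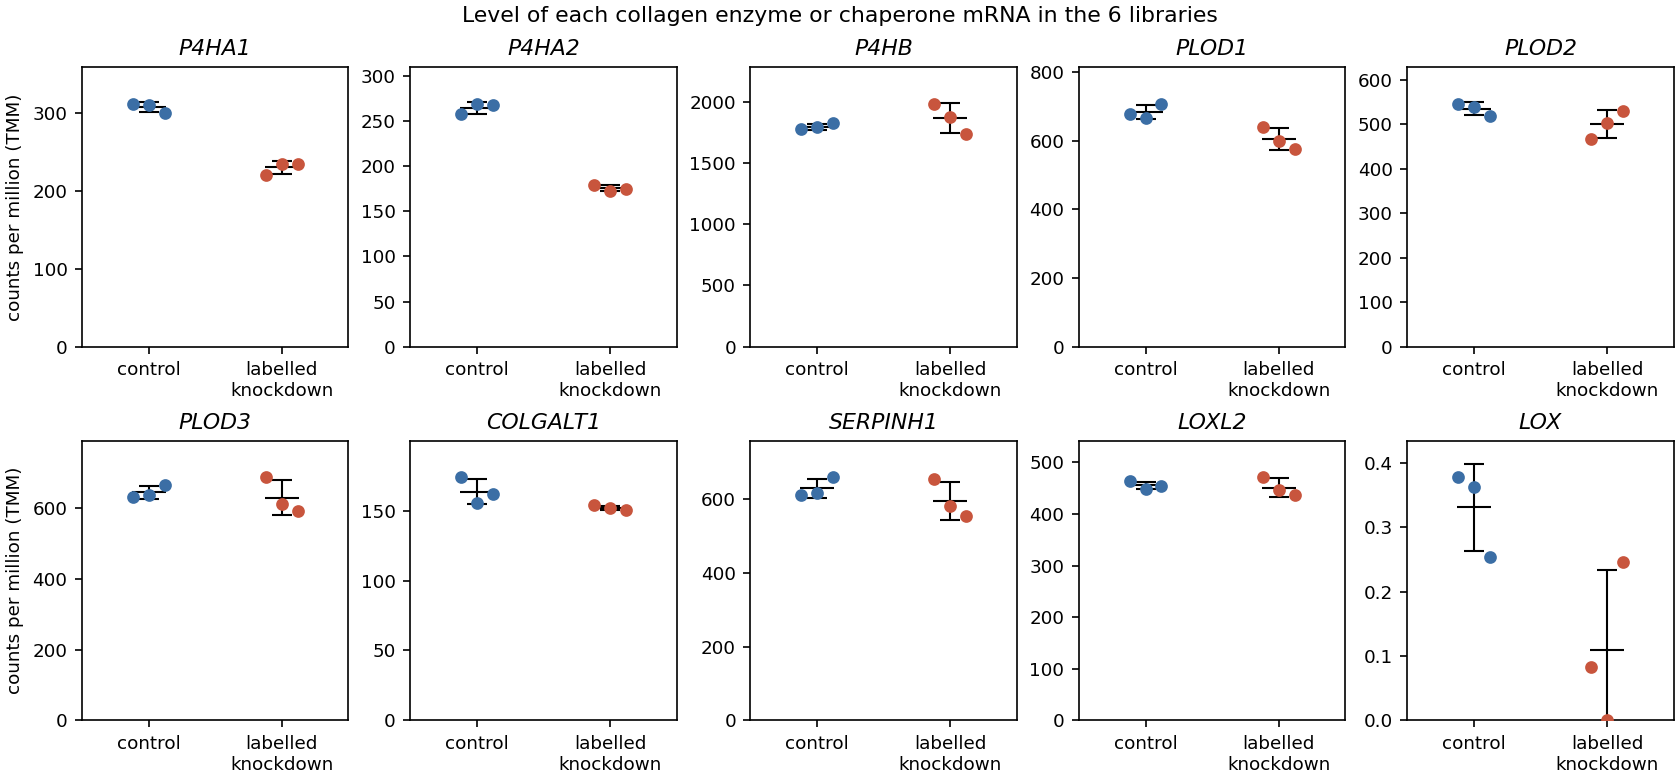
Level of each of the 10 mRNAs in CPM (y axis, from 0, a separate scale per gene) in 3 control libraries (blue) and 3 libraries labelled knockdown (red), replicates 1 to 3 from left to right. Black marks are the mean and SD of each group. P4HA1 and P4HA2 separate the groups clearly, P4HB does not, and LOX stays below 0.4 CPM throughout.

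The balance between the subunit mRNAs was therefore compared per gene length, on the authors' TPM scale, which divides each count by gene length and gives every library the same total. The α subunit mRNAs P4HA1 and P4HA2 summed to 435.6, 427.1 and 412.6 TPM in control and to 300.5, 321.3 and 329.4 TPM in the libraries labelled knockdown. Their sum was 1.34-fold lower in the latter group, and the groups did not overlap. P4HB itself did not overlap on this scale, at 2026 to 2067 TPM in control and 2097 to 2265 TPM in the libraries labelled knockdown, unlike in CPM. The TPM scale depends on the lengths of all genes read in a library, and fold changes correlated with length. The part of this in the P4HB separation was not tested. P4HB mRNA was present at 4.75, 4.74 and 4.94 times the summed α subunit mRNAs in control and at 7.54, 6.90 and 6.37 times in the libraries labelled knockdown. The α subunits thus had more P4HB mRNA beside them in each library labelled knockdown than in any control library. Against P4HA1 alone, the P4HB ratio was 7.02 to 7.50 in control and 9.12 to 11.1 in the libraries labelled knockdown (exact two-sided permutation p = 0.1, Benjamini-Hochberg adjusted p = 0.167). P4HA1 made up 66.7% ± 0.882 of the α subunit mRNA in control and 69.3% ± 1.16 in the libraries labelled knockdown (SD over n = 3 per group). The ratio of P4HA2 to P4HA1 was 0.479 to 0.518 in control and 0.426 to 0.471 in the other group. This is a difference of -0.18 on the log2 scale, with an exact two-sided permutation p of 0.1, the smallest that 3 against 3 libraries can give (Benjamini-Hochberg adjusted p = 0.167 over 5 ratios). P4HA3, another α subunit gene, was barely read, at 1.27 ± 0.468 and 1.33 ± 0.347 CPM (SD over n = 3 per group), and did not pass the test.

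**Figure D2:**
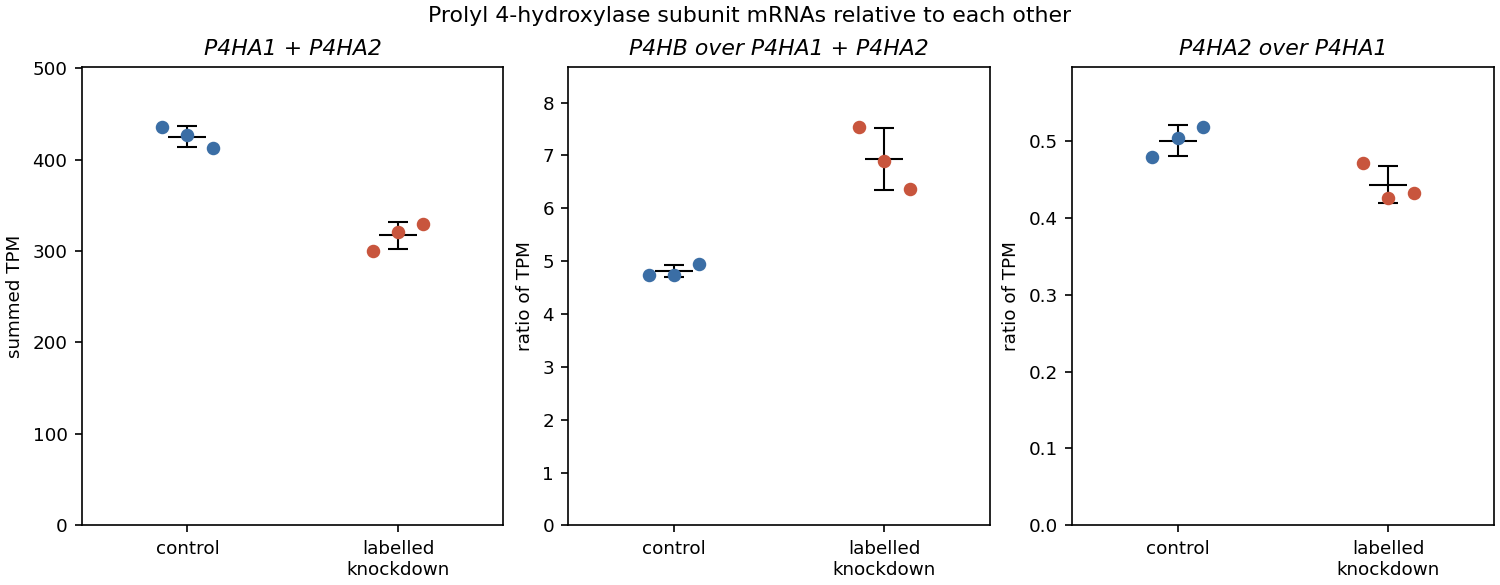
Prolyl 4-hydroxylase subunit mRNAs in each library: summed TPM of P4HA1 and P4HA2 (left), the ratio of P4HB to that sum (middle) and the ratio of P4HA2 to P4HA1 (right), with axes from 0. Points are libraries (blue control, red labelled knockdown) and black marks the mean and SD. The sum falls from between 412.6 and 435.6 TPM to between 300.5 and 329.4 TPM, and the P4HB ratio is above 6 in all 3 libraries labelled knockdown.

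The lysyl hydroxylases differed less. PLOD1, whose enzyme hydroxylates lysines in the helical part of collagen, was at 677.9, 667.5 and 707.9 CPM in control and 638.5, 599.0 and 574.5 CPM in the libraries labelled knockdown. The groups did not overlap, but the nearest libraries were only about as far apart as replicates of 1 group. PLOD1 fell 1.13-fold (log2 fold change -0.18 ± 0.05, SE; 95% interval -0.29 to -0.07; edgeR adjusted p = 0.0215). PLOD1 no longer passed when control replicate 2 (edgeR adjusted p = 0.0617) or control replicate 3 (0.117) was left out, nor when labelled knockdown replicate 2 (0.102) or replicate 3 (0.077) was. With the length and GC offset the log2 fold change was -0.11, and the call held (edgeR adjusted p = 0.0144).

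PLOD2 encodes the enzyme that hydroxylates lysines in the telopeptides, the collagen ends where crosslinks form, and is a known HIF target. Its libraries read 546.5, 539.2 and 518.5 CPM in control and 466.9, 504.1 and 529.5 CPM in the group labelled knockdown. Labelled knockdown replicate 3 lay inside the control range and replicate 1 was the lowest of the 6. The log2 fold change was -0.10 ± 0.06 (SE; 95% interval -0.21 to 0.02; edgeR adjusted p = 0.225). PLOD2 passed as lower with the length and GC offset (log2 fold change -0.17, edgeR adjusted p = 0.000357).

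PLOD3 encodes a multifunctional enzyme that also adds sugars to hydroxylysine. It was read at 631.8, 635.8 and 666.3 CPM in control and at 686.8, 611.8 and 590.7 CPM in the libraries labelled knockdown, so that both the highest and the lowest library belonged to the second group. The log2 fold change was -0.03 ± 0.06 (SE; 95% interval -0.16 to 0.09), with an edgeR adjusted p of 0.712. In the GENCODE v29 annotation, PLOD3 shares 429 bp of exon with ZNHIT1 on the opposite strand. The strand setting of the counting is not given in the sources used here. Per gene length, PLOD3 made up 39.4% ± 0.542 of the lysyl hydroxylase mRNA in control, PLOD1 37.9% ± 0.516 and PLOD2 22.7% ± 0.97 (SD over n = 3 per group). In the libraries labelled knockdown these shares were 41.3% ± 1.72, 35.9% ± 0.62 and 22.9% ± 2.27. The ratio of PLOD1 to PLOD3 did not overlap between the groups, at 0.95 to 0.971 in control and 0.842 to 0.886 in the libraries labelled knockdown (exact permutation p = 0.1, adjusted 0.167). The ratios of PLOD2 to PLOD1 and of PLOD2 to PLOD3 overlapped (exact permutation p = 0.5 and 0.8).

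The sequences before the start sites of 4 hydroxylase genes are shown because P4HA1, P4HA2 and PLOD1 moved in 1 direction and PLOD2 is often grouped with them as a HIF target. Each window runs from 250 bases before to 50 bases after the start of the RefSeq gene (GRCh38.p14, whereas the tables were made on hg19, so these coordinates belong to the RefSeq table alone). Windows are written 5′ to 3′ along the gene, in lower case, and capitals mark the letters ACGTG or GCGTG, the core that HIF binds, on either strand (CACGT or CACGC when it lies on the other strand).
P4HA1 (chr10:73096817-73097116, minus strand): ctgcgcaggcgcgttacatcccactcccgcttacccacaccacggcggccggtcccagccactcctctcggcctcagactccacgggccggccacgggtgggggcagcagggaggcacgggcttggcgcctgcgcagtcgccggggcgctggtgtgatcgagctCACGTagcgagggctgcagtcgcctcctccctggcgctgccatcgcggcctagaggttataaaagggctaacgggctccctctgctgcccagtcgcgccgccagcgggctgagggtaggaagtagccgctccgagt
P4HA2 (chr5:132227042-132227341, minus strand): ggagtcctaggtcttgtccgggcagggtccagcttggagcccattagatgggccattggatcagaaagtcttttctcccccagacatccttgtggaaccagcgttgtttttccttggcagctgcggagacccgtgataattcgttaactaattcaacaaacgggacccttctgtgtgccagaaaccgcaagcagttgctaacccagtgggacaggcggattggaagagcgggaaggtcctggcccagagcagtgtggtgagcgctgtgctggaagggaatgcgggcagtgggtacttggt
PLOD1 (chr1:11934467-11934766, plus strand): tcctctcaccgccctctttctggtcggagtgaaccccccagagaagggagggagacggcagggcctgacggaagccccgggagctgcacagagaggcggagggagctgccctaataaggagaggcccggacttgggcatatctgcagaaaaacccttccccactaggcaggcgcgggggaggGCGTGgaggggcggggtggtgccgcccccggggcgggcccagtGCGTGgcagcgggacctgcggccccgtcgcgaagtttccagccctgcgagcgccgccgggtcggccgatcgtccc
PLOD2 (chr3:146161135-146161434, minus strand): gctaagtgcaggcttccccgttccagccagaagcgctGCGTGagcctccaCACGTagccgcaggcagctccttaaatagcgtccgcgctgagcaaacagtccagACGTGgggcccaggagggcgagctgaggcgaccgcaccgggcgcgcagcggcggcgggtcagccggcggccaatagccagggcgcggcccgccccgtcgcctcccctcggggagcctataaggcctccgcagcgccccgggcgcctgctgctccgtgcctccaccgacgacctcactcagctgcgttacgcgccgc
P4HA1 held 1 match, whose first base was 86 bases before the start. PLOD1 held 2, at 68 and 25 bases before it, and PLOD2 held 3, at 213, 200 and 146 bases before it. P4HA2, the member with the largest fall, held none in this window. Such matches are common: 48.4% of the 27305 RefSeq promoter windows of this length held at least 1, as did 63.2% of the 10989 windows of tested genes. Among the members not shown, PLOD3 held 0 matches, P4HB and SERPINH1 1 each, COLGALT1 2 and LOX 4. A match is not evidence of binding.

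COLGALT1 encodes an enzyme that adds galactose to hydroxylysine. It stood at 173.7, 155.6 and 161.6 CPM in control and at 153.7, 151.7 and 150.6 CPM in the libraries labelled knockdown. All of the latter were below the control libraries, but control replicate 2 was only slightly above them. The difference did not pass the test (log2 fold change -0.11 ± 0.06, SE; 95% interval -0.23 to 0.02; edgeR adjusted p = 0.209). Its paralog COLGALT2 was much less abundant and rose 1.90-fold, from 7.17 ± 0.806 to 13.7 ± 1.57 CPM (both SD over n = 3; edgeR adjusted p = 4.13e-05).

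SERPINH1 encodes HSP47, the chaperone that holds the collagen helix during transport from the endoplasmic reticulum. Levels were 612.1, 618.3 and 659.3 CPM in control and 653.7, 580.6 and 554.6 CPM in the libraries labelled knockdown. Labelled knockdown replicate 1 lay among the control libraries and replicates 2 and 3 below them. The log2 fold change was -0.08 ± 0.06 (SE; 95% interval -0.21 to 0.05; edgeR adjusted p = 0.369). It was -0.14 without labelled knockdown replicate 1, which passed the test (edgeR adjusted p = 0.0301), and 0.03 with the length and GC offset.

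LOXL2 encodes a secreted lysyl oxidase, and it carried nearly all the lysyl oxidase reads among the members. It was at 463.4, 449.1 and 453.9 CPM in control and at 470.9, 447.2 and 435.9 CPM in the libraries labelled knockdown. The groups overlapped almost fully, and the log2 fold change was -0.01 ± 0.05 (SE; 95% interval -0.12 to 0.10; edgeR adjusted p = 0.88). This interval bounds the change at about 0.12 in either direction on the log2 scale. In the GENCODE v29 annotation, LOXL2 has 120 bp of exon in common with ENTPD4 on its own strand. If the counted gene models share these bases, reads from there could count for either. LOX, the founding enzyme of the family and a known HIF target, was close to undetected, with 6, 5 and 4 reads in control and 1, 0 and 4 reads in the libraries labelled knockdown. In the GENCODE v29 annotation, LOX shares 138 bp of exon with SRFBP1 on the opposite strand. SRFBP1 had 2203 reads over the 6 libraries against 20 for LOX. Without a known strand setting, these 20 reads may not all be from LOX. The library with 0 reads allows a level of up to 0.264 CPM, taking 3 counts as the limit. The two-sided 95% Poisson interval for 0 reads is wider and reaches 3.69 counts. The summed reads were 15 and 5, and the groups met at 4 reads. In the fit without the filter on low counts, LOX had a log2 fold change of -1.325 ± 0.781 (SE). It did not pass there (edgeR adjusted p = 0.279), and so few reads leave the size of any difference uncertain. The limits for the library with 0 reads cover counting error only. The 95% intervals of fold changes come from the edgeR fit and include the spread between these libraries.

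**Figure D3:**
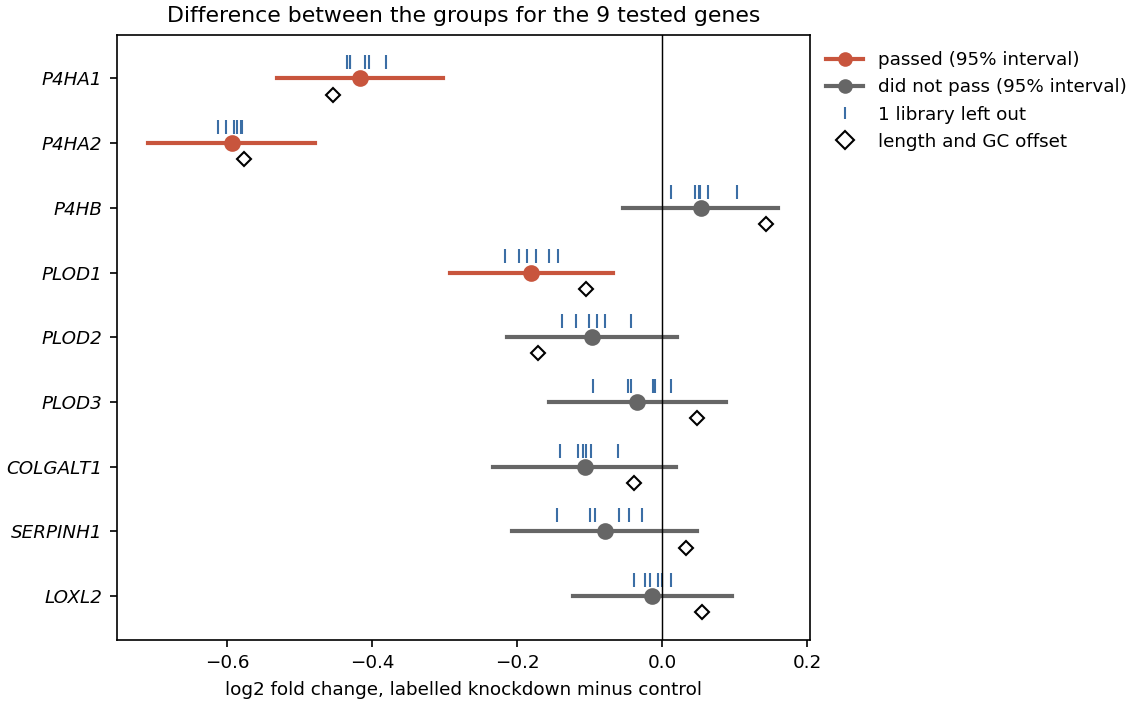
Log2 fold change of the 9 tested members (x axis, labelled knockdown minus control). Circles and bars are the estimate and its 95% interval, red where the gene passed and grey where it did not. Blue ticks are the 6 fits without 1 library, and open diamonds the fit with the length and GC offset. P4HA1 and P4HA2 stay below -0.38 in all of these fits, while the intervals of the 6 genes in grey include 0.

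On the TPM scale, which corrects for gene length, the members spanned several orders of magnitude. P4HB led in control at 2044 ± 21.1 TPM, followed by SERPINH1 (818.3 ± 22.4), PLOD3 (632.4 ± 11.8), PLOD1 (607.8 ± 16.7) and PLOD2 (364.8 ± 17.1). Then came LOXL2 (339.0 ± 12.3), P4HA1 (283.4 ± 11.4), P4HA2 (141.7 ± 1.25), COLGALT1 (124.3 ± 9.48) and LOX (0.173 ± 0.0382; SD over n = 3 per group). Only PLOD2 and LOXL2 overlapped as neighbours in this order, and they did so in both groups. The order in the libraries labelled knockdown differed at 1 place, where COLGALT1 (119.4 ± 2.14 TPM) came above P4HA2 (97.2 ± 2.0 TPM; SD over n = 3 per group), with no overlap. All 10 members together summed to 5274 to 5440 TPM in control and 5197 to 5453 TPM in the libraries labelled knockdown, and the groups overlapped. P4HB made up 38.0% to 38.4% of that sum in control and 40.3% to 41.6% in the libraries labelled knockdown.

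Within the group labelled knockdown, the libraries were ordered alike for the members with GC-rich transcripts. P4HB, PLOD1, PLOD3, LOXL2, SERPINH1 and COLGALT1, with a GC content of 58.4% to 61.9%, were each highest in replicate 1 and lowest in replicate 3. PLOD2 (35.8% GC) was lowest in replicate 1 and highest in replicate 3, and P4HA1 (40.0% GC) was lowest in replicate 1. P4HA2 (51.4% GC) varied by at most 0.03 around its group mean on the log2 scale in that group. Across all tested genes with a GC value, Spearman's rho between GC content and a library's deviation from its group mean reached 0.575 for labelled knockdown replicate 1 and -0.506 for replicate 3; genes are not independent replicates. With gene length, rho was -0.383 for labelled knockdown replicate 1 and 0.379 for replicate 3. The GC-rich members named above were 2130 to 3721 bp long, P4HA1 3010 bp and PLOD2 4059 bp. The deviations of these 2 libraries thus followed both GC content and length, and the part of either in the members' spread was not tested.

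The other genes of collagen maturation moved in both directions. Of 30 further enzymes, chaperones and secretion factors, 24 were tested: 7 rose, 4 fell and 13 did not pass, with a median log2 fold change of 0.09. Over all tested genes, 12.2% rose and 11.0% fell. LOXL3, a lysyl oxidase gene, fell 1.68-fold from 254.1 ± 6.38 to 151.5 ± 10.3 CPM (both SD over n = 3; log2 fold change -0.75, with an SE of 0.06; edgeR adjusted p = 2.66e-07), further below 0 than the estimate of any of the 9 tested members. LOXL1 and LOXL4 had at most 6 and 5 reads in any library and were not tested. PCOLCE, which enhances removal of the collagen C-propeptide, fell 1.27-fold (edgeR adjusted p = 0.00561); its log2 fold change was -0.34, and -0.20 with the length and GC offset. TGM2, a transglutaminase gene that forms another kind of crosslink, rose 1.61-fold from 49.2 ± 1.76 to 79.3 ± 4.60 CPM (both SD over n = 3; edgeR adjusted p = 2.18e-06). ADAMTS3, a procollagen N-proteinase gene, rose 1.60-fold. MIA3, which encodes the TANGO1 receptor that loads collagen for export from the endoplasmic reticulum, rose 1.36-fold, from 90.9 ± 8.66 to 123.5 ± 9.29 CPM (both SD over n = 3; edgeR adjusted p = 0.000516). The prolyl 3-hydroxylase gene P3H1 had a log2 fold change of -0.18 and did not pass (edgeR adjusted p = 0.0642).

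Among the substrates, 24 of 27 listed collagen chain genes were tested, of which 3 rose, 6 fell and 15 did not pass (median log2 fold change -0.07). Beside them, 12.2% of all tested genes rose and 11.0% fell. The falls among the listed chains were led by type V: COL5A2 fell 5.09-fold and COL5A3 2.02-fold. COL11A1, the gene with the most reads among the 27 listed, rose 1.16-fold from 2220 ± 100.4 to 2568 ± 97.6 CPM (both SD over n = 3; edgeR adjusted p = 0.00464); its log2 fold change was 0.21, and 0.12 with the offset. With COL11A1 as their largest term, the listed collagen mRNAs summed to 5305 to 5382 CPM in the libraries labelled knockdown, above the 4849 to 5119 CPM of the control libraries, while more of these genes fell than rose. COL1A2 and COL3A1, chains of the major fibrillar collagens, had at most 11 and 9 reads in any library.

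The relatives of P4HB did not move as a block. Of 17 tested protein disulfide isomerases and their oxidases, 2 rose, 3 fell and 12 did not pass, with a median log2 fold change of -0.04. Among all tested genes, 12.2% rose and 11.0% fell. DNAJC10, a reductase of misfolded proteins, rose 1.32-fold (edgeR adjusted p = 0.000203), and PDIA5 fell 1.44-fold (0.00186). The log2 fold change of DNAJC10, a long transcript of 21075 bp, was 0.40, and 0.20 with the length and GC offset, where it still passed. Of the 3 listed relatives with the most reads, PDIA3 and PDIA4 had log2 fold changes of 0.01 and 0.03 and did not pass, while PDIA6 had one of -0.13 (edgeR adjusted p = 0.0496), a call lost in each of the 6 fits without 1 library (highest adjusted p = 0.206). Of 16 tested enzymes that use 2-oxoglutarate like the hydroxylases, 3 rose, 2 fell and 11 did not pass, beside the same all-gene shares. EGLN3, which hydroxylates prolines of HIF, fell 2.23-fold from 9.0 ± 0.586 to 4.02 ± 0.595 CPM (both SD over n = 3; edgeR adjusted p = 2.07e-05). The RNA demethylase gene ALKBH5 fell 1.29-fold and the DNA dioxygenase gene TET3 rose 1.51-fold. ASPH, an aspartyl hydroxylase gene, rose 1.17-fold, a call lost with the length and GC offset (edgeR adjusted p = 0.314).

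A list of 22 genes held HIF targets outside the collagen enzymes and also HIF1A and EPAS1, which encode HIF subunits. Of these 22, 12 fell, 2 rose and 8 did not pass, beside 11.0% that fell and 12.2% that rose among all tested genes. Their median log2 fold change was -0.26, and -0.19 with the length and GC offset, where 12 fell and 3 rose. This list was written with earlier results of these data known and overlaps the glycolysis and hypoxia genes already examined, so it is not independent evidence of a direction. EGLN3 was counted both here and among the 2-oxoglutarate enzymes. Among tested genes at least as abundant as COLGALT1, 16.8% fell and 17.4% rose, and this list holds genes above and below that level. SLC2A3, a glucose transporter gene, fell 1.44-fold, BNIP3, a mitophagy receptor gene, 1.38-fold and PGK1, a glycolytic enzyme gene, 1.30-fold, from 1456 ± 1.82 to 1124 ± 6.02 CPM (both SD over n = 3; edgeR adjusted p = 1.45e-05). HIF1A, which encodes an oxygen-regulated HIF subunit, rose 1.27-fold and VEGFA, an angiogenic factor gene, 1.26-fold. EPAS1 did not pass. Among the members, P4HA1, P4HA2 and PLOD1 fell and LOX did not pass the filter on low counts. PLOD2, P4HB, PLOD3, LOXL2, SERPINH1 and COLGALT1 had no call without the offset. Which members respond to HIF in these cells was not tested. Of 13 tested genes for the supply of ascorbate, iron, 2-oxoglutarate and sugar donors, 1 rose and 5 fell (median log2 fold change -0.15). Again, 12.2% of all tested genes rose and 11.0% fell. SLC23A2, an ascorbate transporter gene, rose 1.30-fold. The ferritin light chain gene FTL, with a short transcript of 871 bp, fell 1.23-fold; its log2 fold change was -0.30, and -0.15 with the offset. The gene UGP2, which makes the sugar donor UDP-glucose, fell 1.25-fold. The mitochondrial enzyme gene IDH2, which makes 2-oxoglutarate, fell 1.37-fold. SLC2A10, a transporter gene linked to ascorbate and connective tissue, fell 1.61-fold.

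**Figure D4:**
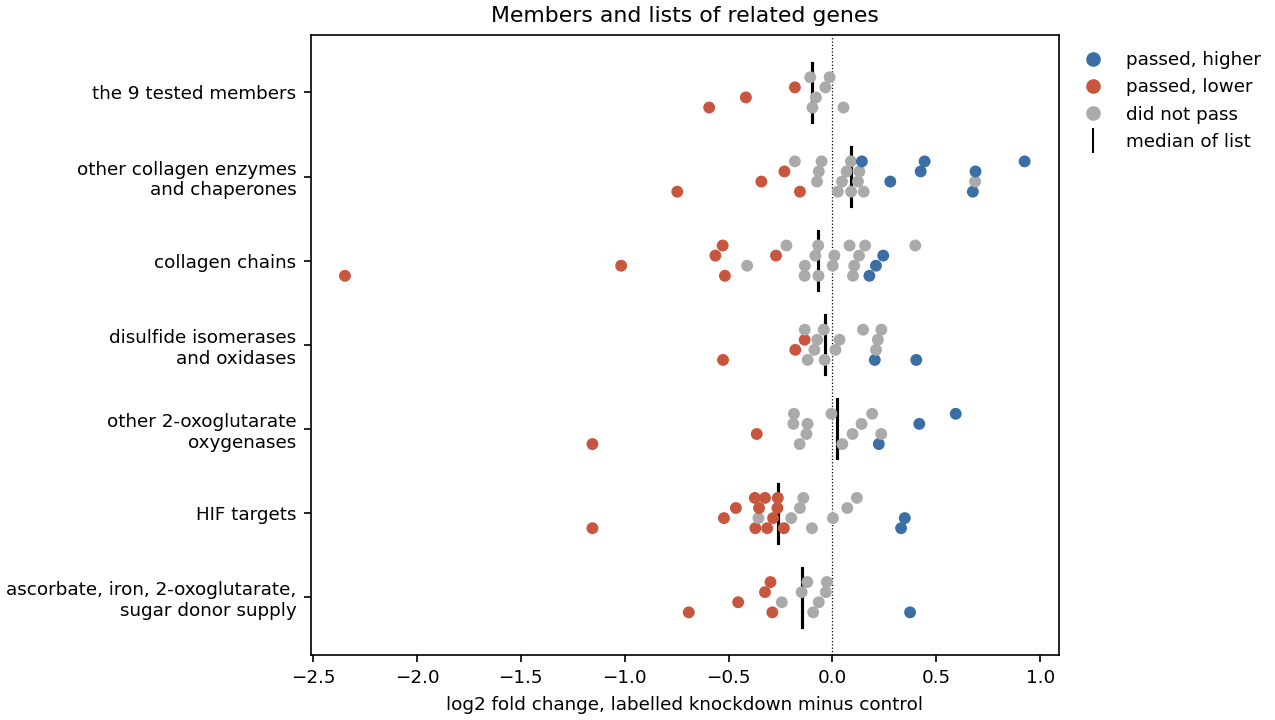
Log2 fold change (x axis, labelled knockdown minus control) of the 9 tested members and of the tested genes in 6 lists of related genes. Each point is a gene, blue where it passed as higher, red where it passed as lower and grey where it did not pass, and black bars are list medians. Without the length and GC offset, the members' median is -0.10 and that of the HIF list, which includes HIF1A and EPAS1, is -0.26. The other collagen enzymes have red and blue points on both sides of a median of 0.09.

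As a description of likeness, each tested gene whose mean log2 CPM was 2 or more was correlated with 3 members over the 6 libraries, without a test, since the libraries share the group difference. The genes closest to P4HA1 were CHN1, RCAN1 and the glucose transporter gene SLC2A3 (Pearson's r of at least 0.998), with log2 fold changes of -0.39, -0.46 and -0.52. Closest to P4HA2 were ACKR1, GABRE and GAD1 (r 0.999, 0.998 and 0.998), and closest to PLOD2 were SETD3, SNX14 and ZDHHC7 (r 0.997, 0.997 and 0.995). Values of r over 0.95 were common, with 340 such genes for P4HA1, 499 for P4HA2 and 94 for PLOD2 among 11869 compared. LOX did not pass the filter on low counts and was left out of this comparison.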

How the data were processed

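Total RNA libraries were made with a stranded kit, per the labels' protocols. FastQC, MultiQC, Trim Galore, HISAT2 and the build hg19 are named in the submitters' processing notes; the gene annotation, the counter and how it treated strand were not given in the sources used here. The deposited counts are whole reads per gene symbol, per the file headers. The authors' FPKM is the count divided by gene length and total count, and returned whole lengths (within 0.001 bp) for the 21754 genes that had counts. The authors' TPM sums to 1000000 per library and was used only to compare levels between genes.

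Counts were fitted with edgeR 4.0.16 (R 4.3.3; filterByExpr, TMM, glmQLFit and glmQLFTest, group as the only term, 6 libraries), with limma 3.58.1 (voom) and DESeq2 1.42.0 as alternatives. The fits were also run on simulated counts with known changes and no length or GC trend, so that run does not cover the trend seen here. The standard error is the log2 fold change divided by the square root of F. The length and GC offset subtracts, per library, a spline fit (5 degrees of freedom each) of log2 CPM deviations on length and GC content (GENCODE v29 transcripts, 97.0% of tested genes); it can also remove group differences that follow these properties. Promoter windows are RefSeq's, 1 per gene, and no window is shown for LOXL2. Exon overlaps were taken from GENCODE v29, all transcripts of a gene combined, and not from the annotation behind the counts. The exon totals differ from the counted lengths, as for LOXL2 with 5707 bp against 3721 bp. Whether the counted gene models share the overlapping bases is therefore not known.

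The members, lists and tests were chosen with earlier results of these data known. Named were the members, TRIM25, and per list up to 4 called genes in each direction with the largest change. Of 35 such genes, 10 (P3H3, CRTAP, COL6A1, COL27A1, COL1A1, COL4A6, ERP29, ERP44, PDIA6 and TET2) did not pass in every fit that left out 1 library (highest adjusted p between 0.0658 and 0.206) and, apart from PDIA6, are part of the counts only. P3H1, P4HA3, COL1A2, COL3A1, LOXL1, LOXL4, PDIA3, PDIA4 and the glioma markers NES, SOX2, OLIG2 and S100B were added after their values were seen. The levels of VIM and CD68 and the result for EPAS1 were added in the same way. No label says that a library number marks a shared day or batch, and same-numbered libraries did not deviate together (r = -0.191, 0.00821 and -0.217), so no pairing was used. Control replicate 3 deviated with labelled knockdown replicate 1 (r = 0.222), and control replicate 1 with labelled knockdown replicate 3 (r = 0.19). The remaining pairs ran from -0.029 to 0.0208. Spearman's rho of these deviations with gene length was -0.359 and -0.383 in the first pair, and 0.41 and 0.379 in the second. What these libraries share was not tested.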

Additional observations from a re-analysis of the deposited data

How the results depend on the processing

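P4HA1 and P4HA2 stayed lower and past the threshold in all 14 alternative fits, with log2 fold changes from -0.45 to -0.38 and from -0.61 to -0.58. Under the length and GC offset 5 members passed (4 lower and 1 higher) instead of 3, with the same fit turning PLOD3, LOXL2 and SERPINH1 to 0.048, 0.055 and 0.032; none of these 3 passed. Over the fits without 1 library, 2 to 4 members passed, and 7 to 13 of the other collagen processing genes against 11 with all libraries. Over all genes these fits called 1826 to 4941 against 3330. Log2 fold changes ran from -0.095 to 0.012 for PLOD3 and from -0.039 to 0.013 for LOXL2 in these fits; the highest number of calls, 4941 genes and 4 members, came without labelled knockdown replicate 1. With the replicate number as a block, 1891 genes, 2 members and 7 of the other collagen processing genes passed; PLOD1 lost its call (adjusted p = 0.0921), and no other member's call changed. With the block and the offset together, 4 members passed, PLOD3, LOXL2 and SERPINH1 were at 0.048, 0.055 and 0.032, and PLOD1 missed the threshold (adjusted p = 0.0565). DESeq2 called 2572 genes. DESeq2, limma-voom, other scaling factors and no filter on low counts each left the 3 calls among the members in place. Depth limits only LOX, with 20 reads in all.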
